A study of Mus musculus with 10 samples.

Results

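The genes described here encode 8 subunits of ionotropic glutamate receptors, namely the AMPA receptor subunits Gria1, Gria2, Gria3 and Gria4 and the kainate receptor subunits Grik1, Grik2, Grik3 and Grik5. They were chosen by name, with earlier results of these data known, from the 15270 gene symbols that all 10 count tables of a single-cell RNA-seq study of the mouse pituitary share. All 8 are in every table. AMPA and kainate receptors are cation channels that open when glutamate binds, and each channel is assembled from several subunits. The Gria2 subunit, through editing of a codon in its transcript, makes AMPA receptors that contain it nearly impermeable to calcium. The Grik1, Grik2 and Grik3 proteins can form kainate channels by themselves, while Grik5 needs 1 of them as a partner. Glutamate is known for its part in the release of several pituitary hormones, prolactin among them, and the study named Gria2, Grik2 and Grik5 when it assigned its lactotrope cluster.

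Cells of 10 pituitary preparations from CD1 mice were dissociated without enzymes and captured on the 10x Genomics or the Drop-Seq platform, both of which count mRNA molecules by unique molecular identifiers (UMIs) near the 3′ end. The 8-week-old WT groups were females (n = 3 libraries) and males (n = 3), and in each sex replicate 1 was made with 10x Genomics and replicates 2 and 3 with Drop-Seq. The other 4 libraries were made with Drop-Seq, from 8-week-old mt/hGRF females (n = 1), which carry human growth hormone-releasing factor under a metallothionein promoter, from a 13-week-old virgin WT female (n = 1) and from 13-week-old lactating WT females (n = 2). The 8-week-old Drop-Seq samples, mt/hGRF included, pooled 2 mice each, and 1 of the lactating libraries likewise, so that a library is not always 1 animal, and the tests measure the spread between libraries. The lactation and mt/hGRF comparisons used the Drop-Seq libraries alone, so that WT female replicates 2 and 3 were set against the mt/hGRF library. The mt/hGRF and virgin groups had 1 library each, and their tests borrow the spread of the other Drop-Seq libraries.

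The tables held 23432 cells after the per-cell limits of the study (978 to 5256 per library) with 27438118 UMIs (960289 to 5080590 per library). No pair of libraries shared more than 6 cell barcodes. From its Drop-Seq cells the study further removed clusters of red blood cells, NK cells, low-quality cells and doublets. That step was not repeated here. Cells were placed in classes by counting UMIs of marker genes, none of which is a hormone gene or a glutamate receptor gene. A total of 9621 cells entered a class, among them 1255 Lac-gated (lactotrope markers), 1639 Som-gated (somatotrope), 1092 Mult-gated (the multi-hormone cluster of the study), 1413 Mel-gated (melanotrope), 514 Gona-gated (gonadotrope) and 466 Stem-gated cells, while 58.9% of cells fell in no class. The Lac gate took 18.6% (female) and 11.7% (male) of kept cells by 10x Genomics, but 2.03 to 6.75% by Drop-Seq. Many Lac-gated cells rest on exactly 2 marker UMIs. These were 58 of 94 in the mt/hGRF library, 81 of 141 in the virgin library, and 55 of 89 and 95 of 130 in the lactating libraries. In WT replicates 1, 2 and 3 they were 0 of 321, 21 of 41 and 26 of 100 in females. In males they were 51 of 207, 14 of 20 and 42 of 112. Of the Gona-gated cells, 13 of 53, 12 of 23 and 13 of 39 in the WT females rest on 2 marker UMIs. In the WT males these were 13 of 61, 9 of 21 and 20 of 86. Levels are given as UMIs of a gene per 10000 UMIs of the class in a library. The hormone genes, which the gates did not use, were compared between the classes. Prl, the prolactin gene, was higher in Lac-gated than in Som-gated cells in 10 of 10 libraries (155.6 to 1068 against 16.7 to 548.1 UMIs per 10000), and Gh, the growth hormone gene, was higher in Som-gated cells in 10 of 10. Within Lac-gated cells, however, Gh was above Prl in 5 of 10 libraries, namely the mt/hGRF library (526.0 against 456.0 UMIs per 10000), the 3 WT males (640.1, 1230.4 and 350.3 against 193.0, 299.3 and 155.6) and WT female replicate 2 (883.5 against 732.8), and Prl was higher in Mult-gated than in Lac-gated cells in 10 of 10 libraries. Pomc was higher in Mel-gated than in Lac-gated cells in 10 of 10 libraries, and Lhb and Fshb were higher in Gona-gated than in Lac-gated cells in 10 of 10. The marker lists of the Lac, Som, Mult and Gona gates come from the clusters that the study built on these same libraries. Gria2, Grik2 and Grik5, which the study named for its lactotrope cluster, may have helped to shape those clusters. Their higher levels in Lac-gated cells are thus not independent of that naming.

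The genes lie on separate chromosomes of the mouse genome (GRCm38, GENCODE vM21). The AMPA genes are Gria1 at chr11:57011387-57330244 on the plus strand, Gria2 at chr3:80681450-80802835 on the minus strand, Gria3 at chrX:41400854-41678601 on the plus strand and Gria4 at chr9:4417896-4796234 on the minus strand. The kainate genes are Grik1 at chr16:87895900-88290265, Grik2 at chr10:49094833-49788766 and Grik5 at chr7:25009849-25072346, all on the minus strand, and Grik3 at chr4:125490700-125714173 on the plus strand. The promoter table, from RefSeq on GRCm38.p6, holds 5 of the 8 genes. Gria2, Gria4, Grik2 and Grik5 were the subunits called higher in Lac-gated cells than the mean of the other classes. The bases just upstream of their starts are shown. They are at chr3:80802836-80803085 for Gria2, chr9:4796235-4796484 for Gria4, chr10:49788767-49789004 for Grik2 and chr7:25072370-25072619 for Grik5, and are read 5′ to 3′ on the minus strand, with GGGCGG matches (a GC box, on either strand) in capitals.
Gria2: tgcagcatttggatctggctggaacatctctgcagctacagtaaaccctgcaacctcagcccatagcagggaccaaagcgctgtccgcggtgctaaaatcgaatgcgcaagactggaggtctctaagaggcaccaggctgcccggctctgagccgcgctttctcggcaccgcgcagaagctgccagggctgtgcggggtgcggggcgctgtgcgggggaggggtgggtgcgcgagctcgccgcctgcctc
Gria4: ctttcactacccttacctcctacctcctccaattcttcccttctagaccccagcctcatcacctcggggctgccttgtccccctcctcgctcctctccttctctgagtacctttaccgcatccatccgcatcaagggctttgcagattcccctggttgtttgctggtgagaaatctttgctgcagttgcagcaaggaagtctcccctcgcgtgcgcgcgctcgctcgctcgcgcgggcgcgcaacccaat
Grik2: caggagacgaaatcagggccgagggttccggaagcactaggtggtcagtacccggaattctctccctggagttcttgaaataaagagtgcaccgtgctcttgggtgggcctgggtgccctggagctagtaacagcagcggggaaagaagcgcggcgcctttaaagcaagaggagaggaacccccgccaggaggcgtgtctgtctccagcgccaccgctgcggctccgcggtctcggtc
Grik5: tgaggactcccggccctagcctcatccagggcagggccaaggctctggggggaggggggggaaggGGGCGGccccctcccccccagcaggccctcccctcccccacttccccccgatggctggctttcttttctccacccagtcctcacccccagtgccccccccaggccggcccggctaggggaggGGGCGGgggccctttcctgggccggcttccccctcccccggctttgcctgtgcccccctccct

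These windows were rich in G and C. The share of G and C was 64.8% for Gria2, 58.8% for Gria4, 61.8% for Grik2 and 75.2% for Grik5, against a median of 52.4% over all 32851 promoters in the table, and the number of CpG pairs was 19, 16, 17 and 8 against a median of 6. GGGCGG was found 2 times in the Grik5 window and 6 times in that of Grik3, and 32.7% of all promoters of the same length hold it on one strand or the other. It was not found in the windows of Gria2, Gria4 and Grik2. The cAMP response element TGACGTCA (in 1.55% of all promoters), the nuclear receptor half-site AGGTCA (14%) and TATNCAT, a pattern of sites for the pituitary factor Pou1f1 (7.92%), were found in none of these 5 windows on either strand. These are matches of letters in short windows, and binding was not measured.

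Gria2 was the subunit with the most UMIs, 7415 of the 27438118 in all cells, and its level was highest in Lac-gated cells. In the WT females the Lac-gated level was 6.58, 3.89 and 7.89 UMIs per 10000 in replicates 1, 2 and 3, and in the WT males it was 6.07, 6.99 and 8.14. The lactating libraries had 5.81 and 7.54, the mt/hGRF library 6.04 and the virgin library 5.31. WT female replicate 2, whose value rests on 16 UMIs in 41 cells, was the lowest of the 10. In Som-gated cells the Gria2 level was 2.65, 1.29 and 2.33 in the WT females and 1.59, 0.411 and 1.39 in the WT males. The lactating libraries had 1.58 and 2.91 in Som-gated cells, the mt/hGRF library 0.614 and the virgin library 0.922. Every Lac-gated value was above every Som-gated value.

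The mean Gria2 level was 6.43 ± 1.29 (SD, n = 10 libraries) in Lac-gated cells, 3.89 ± 2.56 (n = 10) in Gona-gated, 3.63 ± 0.899 (n = 10) in Mel-gated and 1.57 ± 0.839 (n = 10) in Som-gated cells. It was 0.909 ± 0.491 (n = 10) in Mult-gated cells and 0.821 ± 0.961 (n = 9) in Stem-gated cells. In cells gated as macrophages, which should lack the gene, it was 0.176 ± 0.284 (n = 10), with 23 UMIs in 1004 cells. Neighbours in this order were compared within libraries by an exact two-sided permutation test of sign flips, adjusted over the 40 neighbouring pairs of the 8 genes. Mel-gated cells were above Som-gated cells in 10 of 10 libraries (exact p = 0.00195, adjusted p = 0.0391), where 0.00195 is the smallest p that 10 libraries allow. The other neighbours did not differ beyond their spread after the adjustment. Lac-gated cells were above Gona-gated cells in 6 of 10 libraries (exact p = 0.0527, adjusted p = 0.192), Gona-gated above Mel-gated in 6 of 10 (adjusted p = 0.947 in the exact permutation test), Som-gated above Mult-gated in 8 of 10 (adjusted p = 0.130 in the exact permutation test) and Mult-gated above Stem-gated in 5 of 9 (adjusted p = 0.949 in the exact permutation test).

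**Figure D1:**
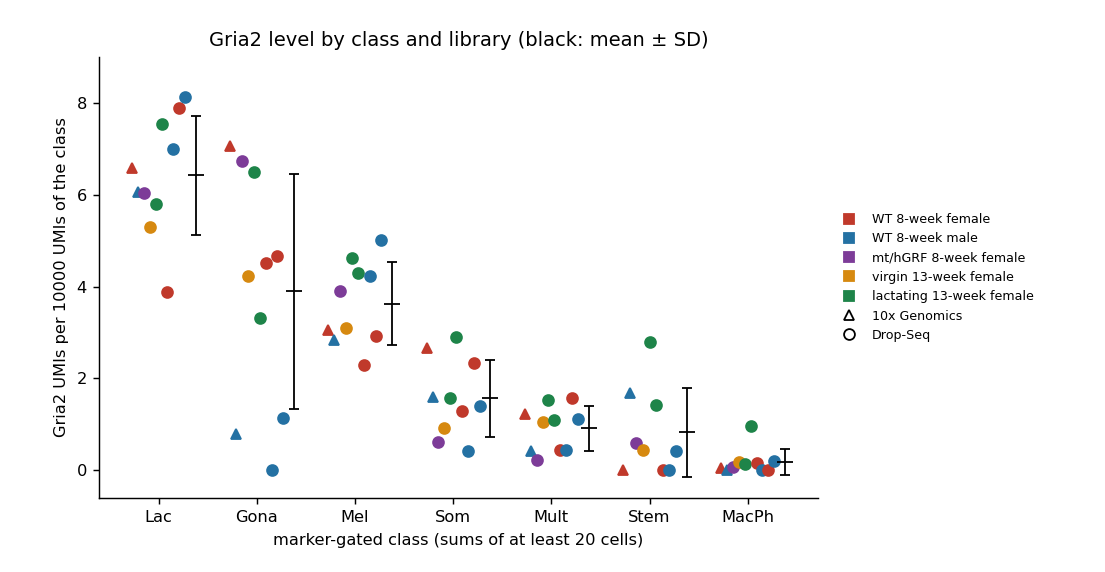
Gria2 level (vertical axis, UMIs of Gria2 per 10000 UMIs of the class) in each marker-gated class (horizontal axis). Each point is 1 library, coloured by group, with triangles for 10x Genomics and circles for Drop-Seq, and the black bars give the mean ± SD over libraries. Lac-gated values span 3.89 to 8.14, Gona-gated values span 0 to 7.07, and macrophage-gated values stay at or below 0.955.

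Gria2 was also counted outside these classes, in cells that the tests of neighbours left out. Cells gated by stromal collagen markers had 374 Gria2 UMIs, 4.48 per 10000 (95% Poisson interval 4.03 to 4.95), with a range of 0.534 to 6.53 over libraries. The 106 corticotrope-gated cells, of which a single library had 20 or more, had 67 UMIs or 4.22 per 10000. Cells in no class had between 0.609 and 5.18 Gria2 UMIs per 10000. In barcodes with too few UMIs to be kept as cells, which carry free RNA and may include poor cells, the Gria2 level lay between 0.459 and 4.28 in the 9 libraries that had enough such barcodes, a range close to that of the cells in no class.

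A Gria2 UMI was found in 534 of 1255 Lac-gated cells, 42.5% (95% exact binomial interval 39.8 to 45.3%, which covers counting error only). The share was 32.7% of Mel-gated, 20.8% of Gona-gated, 15.6% of Som-gated, 14.7% of Mult-gated and 6.65% of Stem-gated cells. In macrophage-gated cells it was 21 of 1004, 2.09% (1.30 to 3.18%), with median depths of 653 to 1832 UMIs per cell over libraries against 544 to 1293 in Lac-gated cells. Since detection depends on depth, every cell was also thinned to 300 UMIs, which left out 1 Lac-gated cell, 1 macrophage-gated cell and no Som-gated cell. The thinned Gria2 share was then 17.8% of Lac-gated, 11.1% of Mel-gated, 8.56% of Gona-gated, 5.37% of Som-gated, 2.66% of Mult-gated and 0.698% of macrophage-gated cells. Outside these classes it was 12.3% of 961 stromal-gated cells, 14.2% of 106 corticotrope-gated cells and 10.3% of cells in no class. Over the libraries the thinned share was 7.32 to 25.9% in Lac-gated and 1.03 to 7.54% in Som-gated cells. The Lac-gated share was higher in 10 of 10 libraries, by 12.3 ± 5.35 percentage points (SD, n = 10; exact two-sided permutation test, p = 0.00195, the smallest p possible).

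Whether Lac-gated and Som-gated cells differ in the subunits was tested on UMIs summed per library and class, with the library as a block (edgeR quasi-likelihood test, Benjamini-Hochberg adjustment over all genes). Of 6461 genes tested 512 were called, that is 7.92% of them, and of the 4 subunits that passed the filter on low counts 3 were higher in Lac-gated cells and 1 was lower. Gria2 was higher by 1.88 ± 0.14 (log2, SE; edgeR adjusted p = 6.64e-37). The other 3 subunits that passed were Grik2, Grik5 and Gria1, while Gria3, Gria4, Grik1 and Grik3 had too few UMIs in these sums. Malat1, a nuclear RNA, was also higher in Lac-gated than in Som-gated cells in 10 of 10 libraries (736.7 to 2785 against 639.3 to 1606 UMIs per 10000), and its part in the difference was not tested.

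Grik2, a subunit that can form kainate channels by itself, was higher in Lac-gated than in Som-gated cells in every library. Its Lac-gated level was 0.805, 1.21 and 2.73 UMIs per 10000 in the WT females, 0.530, 0.466 and 1.30 in the WT males, 0.741 and 0.514 in the lactating libraries, 1.64 in the mt/hGRF library and 0.624 in the virgin library. Its Som-gated level was 0.166, 0.184 and 1.11 in the WT females and 0.230, 0 and 0.869 in the WT males. In Som-gated cells the lactating libraries had 0.332 and 0.255, the mt/hGRF library 0.245 and the virgin library 0.369. Replicate 3 of both sexes was high in Som-gated cells, so the ranges of the classes overlapped although each library had the same order. The value of 0.466 in WT male replicate 2 is 1 UMI in 20 cells. The difference for Grik2 was 1.39 ± 0.27 (log2, SE; edgeR adjusted p = 1.12e-05).

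Grik5, the partner subunit, was higher in Lac-gated cells in 9 of 10 libraries. Its Lac-gated level was 1.06, 0.729 and 3.12 in the WT females, 0.723, 2.80 and 2.87 in the WT males, 2.35 and 2.23 in the lactating libraries, 3.14 in the mt/hGRF library and 1.87 in the virgin library. Its Som-gated level was 0.497, 1.84 and 1.42 in the WT females, 0.503, 1.03 and 1.30 in the WT males, 1.83 and 1.53 in the lactating libraries, 1.47 in the mt/hGRF library and 0.830 in the virgin library. WT female replicate 2, with 3 Grik5 UMIs in Lac-gated cells, was the exception, and both 10x Genomics libraries were low in both classes. The difference for Grik5 was 0.75 ± 0.19 (log2, SE; edgeR adjusted p = 0.00146), and in the 10x Genomics libraries alone it was 0.73 ± 0.32 and did not pass (edgeR adjusted p = 0.219).

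Gria1, an AMPA subunit that forms calcium-permeable channels when Gria2 is missing, was the subunit lower in Lac-gated cells among those that passed the filter on low counts. Its Som-gated level was 0.426, 1.10 and 1.72 in the WT females, 0.215, 0.411 and 1.56 in the WT males, 0.747 and 0.460 in the lactating libraries and 1.75 in the virgin library. The mt/hGRF library had 0 Gria1 UMIs in Som-gated cells, where 3 UMIs would be 0.368 per 10000. Its Lac-gated level was 0 to 1.11, with 3 libraries at 0, and was below the Som-gated level in 8 of 10 libraries. The exceptions were the mt/hGRF library (0.377 against 0) and WT male replicate 2 (0.466 against 0.411, or 1 UMI against 2). The difference for Gria1 was -1.88 ± 0.34 (log2, SE; edgeR adjusted p = 1.75e-06). With every cell thinned to 300 UMIs, Gria1 and Grik2 had too few UMIs to be tested, and Gria2 and Grik5 were still called.

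Gria4, the AMPA subunit with the second most UMIs in Lac-gated cells, was above Som-gated cells in 7 of 10 libraries and equal in 1. Without the filter on low counts it was 1.74 ± 0.34 higher (log2, SE; edgeR adjusted p = 3.14e-05). With cells taken by Prl and Gh alone, a choice of cells that used no other marker, Gria4 passed the filter and was 1.94 ± 0.29 higher (edgeR adjusted p = 8.36e-08). The hormone-gated cells also gave Gria2 2.06 ± 0.20 higher, Grik2 1.12 ± 0.21 higher and Grik5 0.73 ± 0.16 higher in the Prl cells, and Gria1 lower by -1.83 ± 0.26, each with an edgeR adjusted p of 3.02e-04 or less. Grik3, a kainate subunit, was lower by -2.64 ± 0.50 in those Prl cells (edgeR adjusted p = 2.92e-05). Lac-gated cells held 2 Grik3 UMIs in all, both in WT female replicate 1, against 32 in Som-gated cells, where it was higher in 8 of 10 libraries.

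**Figure D2:**
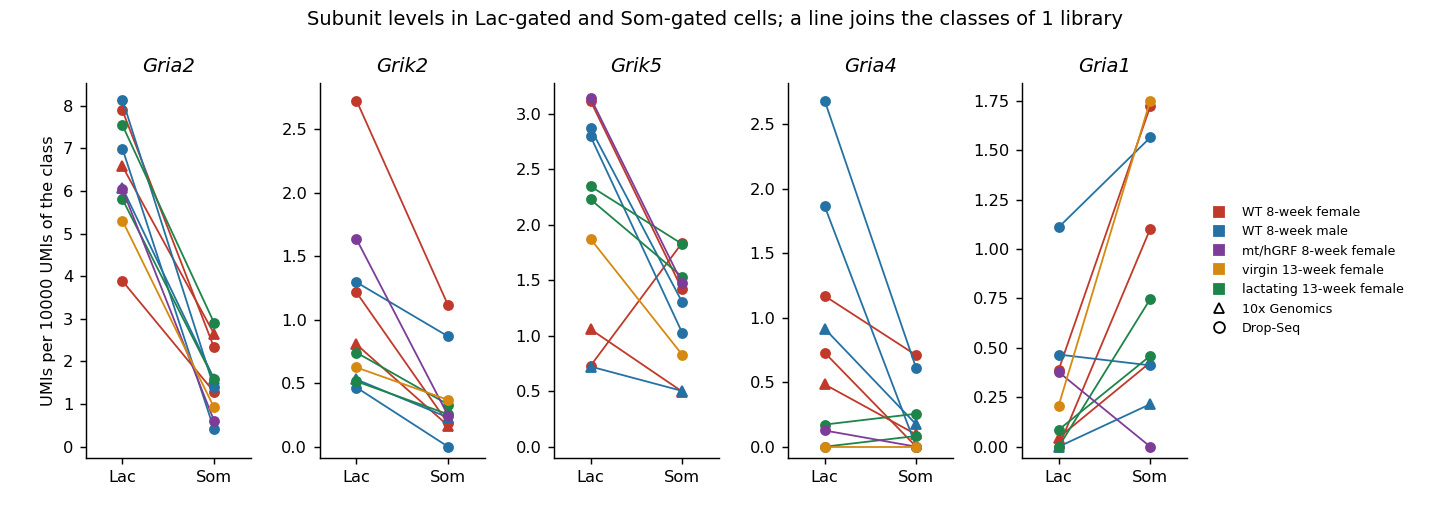
Levels of Gria2, Grik2, Grik5, Gria4 and Gria1 (vertical axes, UMIs per 10000 UMIs of the class) in Lac-gated and Som-gated cells. A line joins both classes of 1 library, coloured by group. Gria2 and Grik2 fall from Lac to Som in 10 of 10 libraries, Grik5 in 9, Gria4 in 7, and Gria1 is higher in Som in 8.

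Each class was then set against the mean of the other 5 classes in the fit (Lac, Som, Mult, Gona, Mel and Stem; 59 sums, 10097 genes, all 8 subunits tested; edgeR quasi-likelihood test, adjusted over all genes). These contrasts call many genes, 21.3% for Lac, 25.1% for Som, 50.1% for Mult, 17.0% for Gona, 24.5% for Mel and 39.2% for Stem. The split of these calls depends on the scaling. With library totals in place of TMM factors, 15.9% of genes were higher and 6.86% lower for Lac (11.9% and 9.39% with TMM), 16.7% and 42.2% for Mult (30.3% and 19.9%), 19.8% and 2.99% for Gona (7.50% and 9.54%), 7.48% and 19.8% for Mel (15.6% and 8.88%) and 25.8% and 11.5% for Stem (19.7% and 19.5%). In Lac-gated cells 5 of the 8 subunits were called, 4 of them higher. These were Gria4 by 2.29 ± 0.30 (log2, SE; edgeR adjusted p = 1.22e-11), Grik2 by 1.93 ± 0.25 (3.13e-12), Gria2 by 1.77 ± 0.22 (1.54e-08) and Grik5 by 1.07 ± 0.17 (2.47e-08). From the single class next in order, none of the 4 differed beyond the spread after adjustment. Grik2 was above Gona-gated cells in 9 of 10 libraries (exact permutation test, adjusted p = 0.139) and Grik5 in 8 of 10 (adjusted p = 0.130). Gria4 was above Mel-gated cells in 7 of 10 (exact permutation test, adjusted p = 0.139). Grik3 was lower by -2.32 ± 0.68 (edgeR adjusted p = 0.00616), and by -3.70 ± 0.93 without WT female replicate 1, which holds both Grik3 UMIs of Lac-gated cells. It was called in the 8 refits without 1 library in which it passed the filter on low counts, and was not tested in the other 2. Gria4 had the largest fitted difference of the 4 higher subunits, on 91 UMIs in Lac-gated cells, 0.706 per 10000 (95% Poisson interval 0.569 to 0.867), against 0.0587 to 0.185 in the pooled sums of the other 5 classes.

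In Mel-gated cells, from the intermediate lobe, Gria2, Grik2 and Grik5 were called higher than the mean of the other classes, as in Lac-gated cells, and Grik1 besides. The mean levels in Gona-gated cells were no lower than in Mel-gated cells. They were 3.89 and 3.63 for Gria2, 0.526 and 0.461 for Grik2, and 1.44 and 1.42 for Grik5 (exact permutation test, adjusted p = 0.947, 0.938 and 0.949). Grik1, a kainate subunit, was higher in Mel-gated cells by 5.03 ± 0.34 (log2, SE; edgeR adjusted p = 5.49e-43). Grik1 had 159 UMIs there and between 0 and 7 in each of the other 5 classes, whose low counts make the fitted size uncertain. With 173 UMIs in this fit, Grik1 passed the filter on low counts only through Mel-gated cells, so this p is not independent of that filter. Its Mel-gated level was 0.0636 and 0.0389 in the 10x Genomics libraries of WT female and male replicate 1. By Drop-Seq it was 0.354 and 1.08 in the WT females, 1.25 and 0.855 in the WT males, 1.46 and 1.07 in the lactating libraries, 1.49 in the mt/hGRF library and 0.687 in the virgin library. The platforms did not overlap, and the part of the platform, or of the gene models behind its counts, in these Grik1 levels was not tested. Mel-gated cells were above Lac-gated cells in Grik1 in 10 of 10 libraries (exact permutation test, p = 0.00195, adjusted p = 0.0391 over the 40 pairs). Gria2 was higher in Mel-gated cells by 1.21 ± 0.22 (edgeR adjusted p = 3.37e-05), Grik5 by 0.78 ± 0.16 (4.10e-05) and Grik2 by 0.69 ± 0.27 (0.0438). The Grik2 call in Mel-gated cells was lost with DESeq2, the stricter gate, library totals or Drop-Seq alone, and without any of 4 libraries, WT female replicate 2 and WT male replicates 1, 2 and 3. Gria1 was lower by -1.74 ± 0.39 (edgeR adjusted p = 1.10e-04).

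Gria1 was 1.74 ± 0.25 higher in Som-gated cells than in the other classes (log2, SE; edgeR adjusted p = 5.64e-10). Its mean level was 0.840 ± 0.650 (SD, n = 10) there and 0.387 ± 0.328 (n = 10) in Gona-gated cells, the next in order, from which it did not differ beyond the spread (higher in 8 of 10 libraries, exact permutation test, p = 0.0508, adjusted p = 0.192). Grik3 was 1.14 ± 0.39 higher in Som-gated cells (edgeR adjusted p = 0.0205) and Gria3 was lower by -1.57 ± 0.61 (edgeR adjusted p = 0.0446), on 3 UMIs. Grik3 was not called with DESeq2, and Gria3 was called neither with DESeq2 (adjusted p = 0.0620) nor with library totals in place of TMM factors (edgeR adjusted p = 0.0650), nor when any of 6 libraries was left out. Gria3 passed the filter on low counts in 7 of the refits without 1 library. In Mult-gated cells, in which Prl and Gh were above Lac-gated cells in 10 of 10 libraries, Gria2 was lower by -0.98 ± 0.26 (edgeR adjusted p = 0.00168) and Grik5 by -1.32 ± 0.20 (edgeR adjusted p = 8.04e-10). Nuclear RNAs moved with this class, since Malat1 was below Lac-gated cells in 10 of 10 libraries (82.6 to 382.3 against 736.7 to 2785 UMIs per 10000) and so was Meg3 (0.984 to 74.8 against 9.77 to 664.1), and their part in the lower levels was not tested. In Gona-gated cells the result depended on the scaling. None of the 8 subunits was called there by edgeR with TMM factors or by DESeq2, and 1 of them, Grik3, had an unadjusted edgeR p under 0.05, while 4 were called with library totals in place of TMM factors, Gria2 among them at 0.89 ± 0.28 (edgeR adjusted p = 0.0157), 1 by Drop-Seq alone and 1 without WT female replicate 1. In Stem-gated cells Gria3 was 1.88 ± 0.51 higher (edgeR adjusted p = 0.00107), on 17 UMIs. It was called in the 7 refits without 1 library in which it passed the filter on low counts. Gria2, Grik2, Grik5, Gria4 and Grik1 were lower in Stem-gated cells. The last 2 of these calls were not made with DESeq2. That of Gria4 was also lost without any 1 of the 3 WT male libraries (edgeR adjusted p up to 0.195), and that of Grik1 without the mt/hGRF library, the virgin library or lactating replicate 2 (edgeR adjusted p up to 0.0651). Grik1 had 0 UMIs in the 466 Stem-gated cells, which allows a pooled level of up to 0.0440. Lac-gated, Som-gated, Mult-gated and Gona-gated cells held 3, 2, 7 and 2 Grik1 UMIs, against 159 in Mel-gated cells. These counts do not set Stem-gated cells below any of these classes but the Mel-gated cells.

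**Figure D3:**
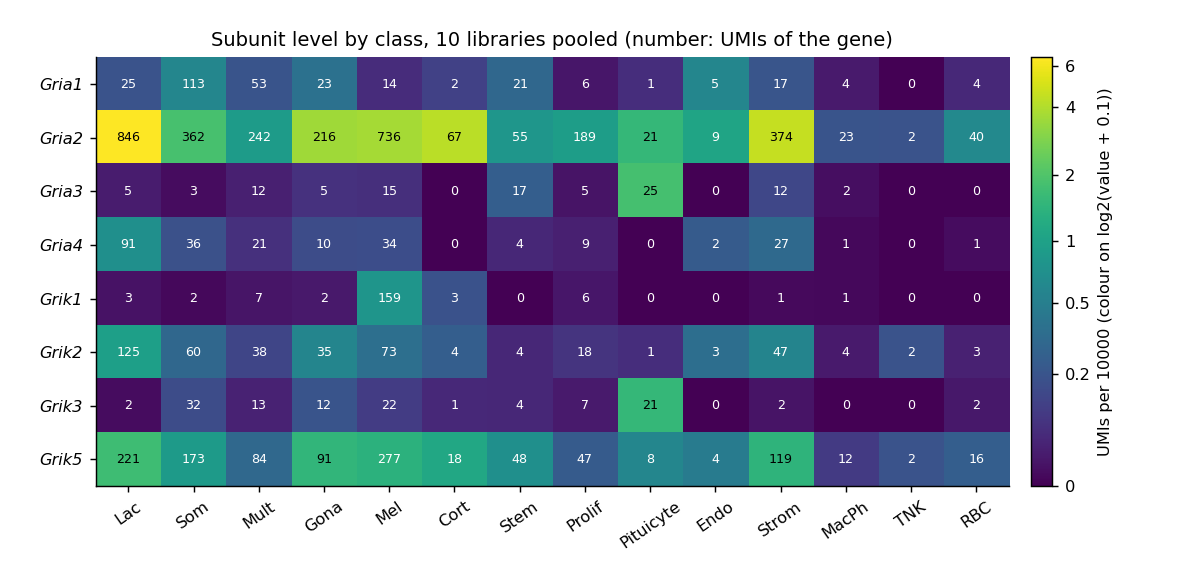
Level of each subunit gene (rows) in each marker-gated class (columns), with the 10 libraries pooled. Colour gives UMIs per 10000 UMIs of the class on a log2(value + 0.1) scale and the number in a cell is the UMIs behind it. Gria2 is the brightest row, with 846 UMIs in Lac, Grik1 stands out in Mel with 159, and Gria3 and Grik3 in Pituicyte with 25 and 21.

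The share of each family that a subunit makes up differed between classes. Gria2 was 87.5% of AMPA subunit UMIs in Lac-gated cells (95% exact binomial interval 85.2 to 89.5%), 92.1% in Mel-gated, 85.0% in Gona-gated, 73.8% in Mult-gated, 70.4% in Som-gated and 56.7% in Stem-gated cells. Gria1 was 22.0% of them in Som-gated cells (18.5 to 25.8%) and 2.59% in Lac-gated cells (1.68 to 3.79%), where Gria4 was 9.41%. Grik5 was the larger part of the pooled kainate subunit UMIs in all 6 classes, with 63.0% in Lac-gated, 64.8% in Som-gated and 52.2% in Mel-gated cells. The rest was mostly Grik2 in Lac-gated cells (35.6%), Grik2 and Grik3 in Som-gated cells (22.5% and 12%), and Grik1 and Grik2 in Mel-gated cells (29.9% and 13.7%). UMI counts near the 3′ end are not corrected for how well each transcript is captured. These shares therefore compare classes, and an order of subunits within a class is an order of UMIs and not of transcripts. The shares pool libraries of unequal depth, and the intervals treat the 10 libraries as 1 sample. In single libraries the Gria1 share in Som-gated cells had a median of 33.2% (0 to 63.3%) and the Gria2 share in Stem-gated cells a median of 34.5% (0 to 100%), both far from the pooled values, while the Gria2 share in Lac-gated cells had a median of 89.6% (66.7 to 100%). In Mel-gated cells the median of single libraries was 48.8% for Grik5 (38.6 to 78.3%), 28.6% for Grik1 (4.17 to 37.8%) and 13.3% for Grik2 (3.01 to 41.7%), so the order of Grik1 and Grik2 was not the same in every library.

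A further 81 cells carried pituicyte markers, the glia of the posterior lobe, of which a single library had 20 or more, so no test was made. Gria3 had 25 UMIs there, 1.83 per 10000 (95% Poisson interval 1.19 to 2.71), and Grik3 had 21 UMIs, 1.54 per 10000 (0.953 to 2.35). In the 6 classes above the pooled Gria3 level was at most 0.249 and the pooled Grik3 level at most 0.196. Gria4 and Grik1 had 0 UMIs in pituicyte-gated cells, which allows a level of up to 0.220.

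Both families were found together in some cells. Of the 1255 Lac-gated cells 46.3% had an AMPA subunit UMI, 21.8% a kainate subunit UMI and 12.6% both. Kainate subunits were found in 27.2% of the Lac-gated cells with an AMPA UMI (23.6 to 31.0%) and in 17.2% of those without (14.4 to 20.3%). These cells were not matched in depth, and the part of depth was not tested, so this is a description. In Mel-gated cells the shares were 34.9%, 27.5% and 11.9%, and in macrophage-gated cells 2.79%, 1.49% and 0.199%.

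Sex, lactation and the mt/hGRF transgene were compared within classes on the same sums (edgeR quasi-likelihood test, adjusted over all genes of a class). No subunit was called in Lac-gated, Som-gated, Mult-gated or Mel-gated cells, or in all kept cells together, in any of these comparisons, by edgeR or by DESeq2. The share of all genes that edgeR called was small. For sex it was 0.161% of genes in Lac-gated, 0.155% in Som-gated, 0.152% in Mult-gated, 0.120% in Mel-gated and 0.0815% in all cells. For lactation it was 0.0151%, 0.0132%, 0.0210%, 0.0112% and 0.00934% in the same order. For mt/hGRF it was 0.0151%, 0.145%, 0.440%, 0.0112% and 0.00467%. The last of these is 1 gene, against 197 with DESeq2, and it moved when 1 library was left out. For mt/hGRF in Som-gated and Mult-gated cells DESeq2 called fewer genes than edgeR, and these shares also moved when 1 library was left out. At an unadjusted edgeR p under 0.05 there was 1 subunit for sex in each of Lac-gated, Mult-gated and Mel-gated cells, of 5 tested in each. Of all genes, 213 of 6832, 250 of 7903 and 238 of 7531 were under it. For lactation there were 2 of 6 in Som-gated cells (238 of 7599 genes) and 1 of 8 in all cells (395 of 21413). For mt/hGRF there was 1 of 5 in Lac-gated (250 of 6615 genes), 1 of 6 in Som-gated (472 of 7599) and 1 of 4 in Mult-gated cells (836 of 9543). For sex these were Gria4 in Lac-gated and Mel-gated cells and Gria2 in Mult-gated cells, for lactation Gria1 and Gria2 in Som-gated cells and Grik1 in all cells, and for mt/hGRF Gria4 in Lac-gated, Gria1 in Som-gated and Gria2 in Mult-gated cells. In the other combinations of these classes and comparisons there were 0. The smallest of these p was that of Gria1 for mt/hGRF in Som-gated cells, with 0 UMIs in the mt/hGRF library, which allows up to 0.368 per 10000, against 1.10 and 1.72 in WT female replicates 2 and 3 (unadjusted p = 3.72e-04 and adjusted p = 0.176 in edgeR). For lactation Gria1 in Som-gated cells was 0.747 and 0.460 in the lactating libraries and 1.75 in the virgin library, a difference of -1.52 ± 0.67 (log2, SE; unadjusted p = 0.0230 and adjusted p = 0.997 in edgeR).

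In Lac-gated cells none of the Gria2 differences between conditions passed. The female minus male difference was -0.07 ± 0.38 (log2, SE), with female values of 3.89 to 7.89 and male values of 6.07 to 8.14 that overlapped. The lactating minus virgin difference was 0.45 ± 0.56 and the mt/hGRF minus WT female difference was 0.21 ± 0.56 (edgeR adjusted p of 0.993 or more for all 3). When 1 library was left out, the sex difference was between -0.29 and 0.14 and the mt/hGRF difference between -0.21 and 0.73, so neither kept its direction. A p that misses the threshold does not show that the levels were alike. In Som-gated cells the Gria2 differences were 0.67 ± 0.36 for sex, 1.38 ± 0.64 for lactation and -1.45 ± 0.79 for mt/hGRF, on 5 UMIs in the mt/hGRF library, with edgeR adjusted p of 0.783 or more. In Mult-gated cells they were 0.85 ± 0.38, 0.60 ± 0.55 and -1.87 ± 0.72 (edgeR adjusted p = 0.319 for the last). The sex difference in Mult-gated cells was between 0.26, without WT female replicate 1, and 1.43, without WT male replicate 3, when 1 library was left out, and 1.91 without the 5% of cells with the most UMIs. The mt/hGRF difference there was between -2.33, without WT female replicate 2, and -0.88, without WT female replicate 3, and none of these passed. The lactation difference in Som-gated cells was between 0.79, without lactating replicate 2, and 1.78, without lactating replicate 1, and did not pass either. In Mel-gated cells they were -0.32 ± 0.34 for sex, 0.81 ± 0.53 for lactation and 0.38 ± 0.55 for mt/hGRF, with edgeR adjusted p of 0.977 or more. Whether the Gria2 difference was unlike in Lac-gated and Som-gated cells was tested as an interaction, and it passed neither for sex (-0.70 ± 0.38, edgeR adjusted p = 1.00) nor for lactation (-0.86 ± 0.67, adjusted p = 1.00). These interactions called 0.0293% of genes for sex and 0% for lactation, where 170 genes had an unadjusted edgeR p under 0.05 and DESeq2 was not run.

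Over all kept cells the share of each cell type and its Gria2 level cannot be told apart. The Gria2 level over all cells was 4.26 and 4.28 in the lactating libraries, 2.68 in the virgin library and 1.74 in the mt/hGRF library, against 1.66 to 3.26 in the WT females and 0.970 to 3.09 in the WT males. The lactating minus virgin difference over all cells was 0.96 ± 0.52 (log2, SE; edgeR adjusted p = 1.00). Proliferating-gated cells had 7.08 and 6.79 Gria2 UMIs per 10000 in the lactating libraries and 3.80 in the virgin library, against 0.0113 to 3.09 in the WT 8-week libraries and 1.52 in the mt/hGRF library. This difference was seen in the values and not tested, and rests on 15 to 134 cells a library. The Proliferating-gated cells of both 10x Genomics libraries stood apart in depth, with 514225 UMIs in 46 cells and 883240 in 48, against 16164 to 142963 UMIs in the sums by Drop-Seq.

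Gria4 in Lac-gated cells was uneven over the groups. Its level was 0.483, 0.729 and 1.17 in the WT females and 0.915, 1.86 and 2.68 in the WT males at 8 weeks. It was 0.126 in the mt/hGRF library, 0 in the virgin library, and 0 and 0.171 in the lactating libraries. The 6 WT 8-week libraries were thus all above the other 4, which held 3 Gria4 UMIs in all. The female minus male difference was -1.05 ± 0.46 (log2, SE; unadjusted p = 0.0217 and adjusted p = 1.00 in edgeR), and the mt/hGRF minus WT female difference was -2.64 ± 1.35 (edgeR adjusted p = 0.998). The contrast of the 6 libraries with the other 4 is no comparison of the design and was seen in the values, so it was not tested.

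**Figure D4:**
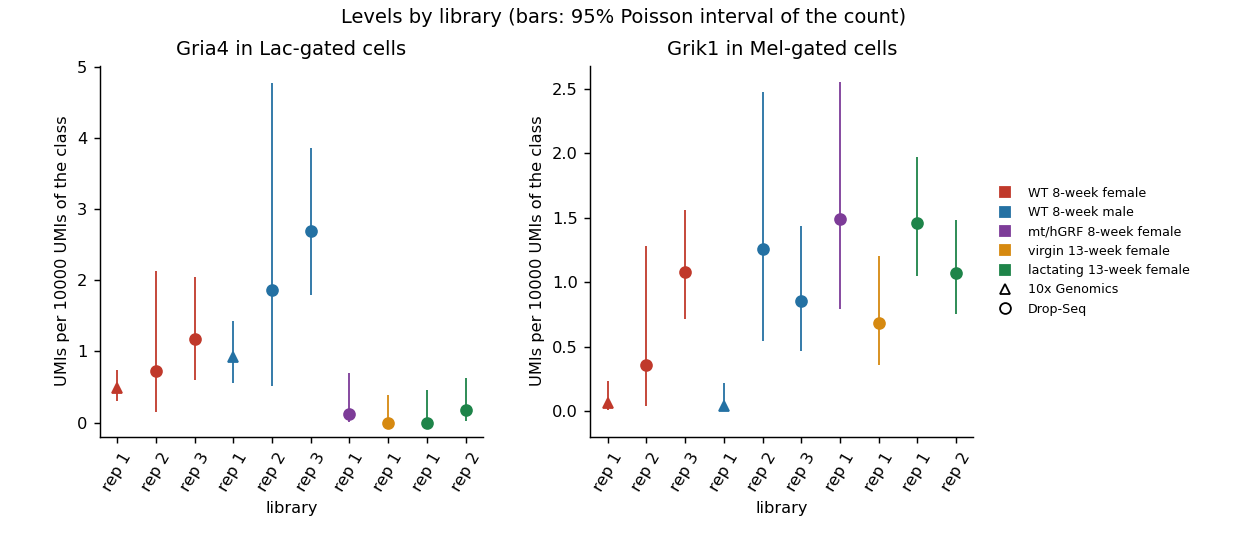
Gria4 in Lac-gated cells (left) and Grik1 in Mel-gated cells (right), in UMIs per 10000 UMIs of the class, for each library along the horizontal axis. Bars are 95% Poisson intervals of the count, triangles 10x Genomics and circles Drop-Seq. Gria4 is 0.483 to 2.68 in the 6 WT 8-week libraries and at most 0.171 in the other 4, and Grik1 is at most 0.0636 in the 10x Genomics libraries and at least 0.354 by Drop-Seq.

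In Gona-gated cells Gria2 was higher in females than in males. The test of this class was added after these values had been seen. The level was 7.07, 4.52 and 4.67 UMIs per 10000 in the WT females, on 57, 9 and 21 UMIs in 53, 23 and 39 cells. It was 0.791, 0 and 1.13 in the WT males, on 8, 0 and 13 UMIs in 61, 21 and 86 cells. In WT male replicate 2 the 24588 UMIs of the class allow a level of up to 1.22 (3 UMIs). The groups did not overlap, and 41.5%, 21.7% and 28.2% of the female cells had a Gria2 UMI against 9.84%, 0% and 12.8% of the male cells. The other 4 libraries, all from females, had 6.74 (mt/hGRF), 4.23 (virgin), 6.49 and 3.31 (lactating). All 7 female libraries were therefore above all 3 male ones. The Gria2 level in barcodes with too few UMIs to be cells was 0.883, 0.50 and 1.42 in the WT females and 0.470, 0.459 and 2.0 in the WT males. It was 3.81 in the mt/hGRF library, 4.28 in the virgin library and 1.91 in lactating replicate 1. The Gona-gated values of the virgin library and of WT male replicates 2 and 3 were thus not above the level in these barcodes. The barcodes held a mean of 261, 221 and 114 UMIs in these libraries and may include poor cells. Their level is therefore not a measure of free RNA alone.

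The female minus male difference of Gria2 in Gona-gated cells was 2.63 ± 0.45 (log2, SE; edgeR adjusted p = 3.17e-06), in a comparison in which 19 of 4774 genes, 0.398%, were called. With DESeq2 it was 2.73 ± 0.65 (adjusted p = 0.0244). With the replicate number as a block it was 2.69 ± 0.40 (edgeR adjusted p = 1.63e-08). In the Drop-Seq libraries alone it was 2.42 ± 0.69 and did not pass (edgeR adjusted p = 0.401). The call was likewise lost without WT female replicate 1, the 10x Genomics female, at 2.43 ± 0.68 (edgeR adjusted p = 0.113). Without 1 of the other 5 libraries the difference was between 2.39, without WT male replicate 1, and 3.39, without WT male replicate 3, and passed. The difference was larger in Gona-gated than in Lac-gated cells by 2.59 ± 0.49 (edgeR interaction, adjusted p = 2.49e-04, where 0.0754% of genes were called) and than in Mel-gated cells by 2.94 ± 0.47 (adjusted p = 2.91e-06, 0.0822% called). Against Som-gated cells it was larger by 2.01 ± 0.52 and did not pass (edgeR adjusted p = 0.133, 0.0473% called). No subunit was called in Gona-gated cells for lactation, where 0.0368% of genes were called, or for mt/hGRF, where 0% were called by edgeR and by DESeq2 and 257 genes had an unadjusted edgeR p under 0.05. None of the 4 subunits tested there had an unadjusted p under 0.05 in either comparison.

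Other measures of the Gona-gated cells are given beside this. The summed level of the 10 gonadotrope marker genes was 35.8 to 39.7 in WT females and 30.9 to 49.9 in WT males. Lhb was 6.32, 5.53 and 8.45 UMIs per 10000 in the females and 8.71, 8.54 and 5.80 in the males, whereas Fshb was 0.248, 2.01 and 3.78 against 32.4, 32.9 and 15.9. The summed level of the 9 lactotrope marker genes in Gona-gated cells was 2.01 to 10.2 in females, with 2 to 9 of the 9 genes found, and 2.03 to 4.35 in males, with 3 to 8 found. The highest of these, 10.2, was in WT female replicate 1, and in Lac-gated cells of the same libraries the sum was 23.8 to 42.7. Prl was 102.8, 201.9 and 39.8 in the female and 43.9, 26.8 and 24.5 in the male Gona-gated cells. The part of lactotrope RNA in the Gria2 difference was not tested.

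**Figure D5:**
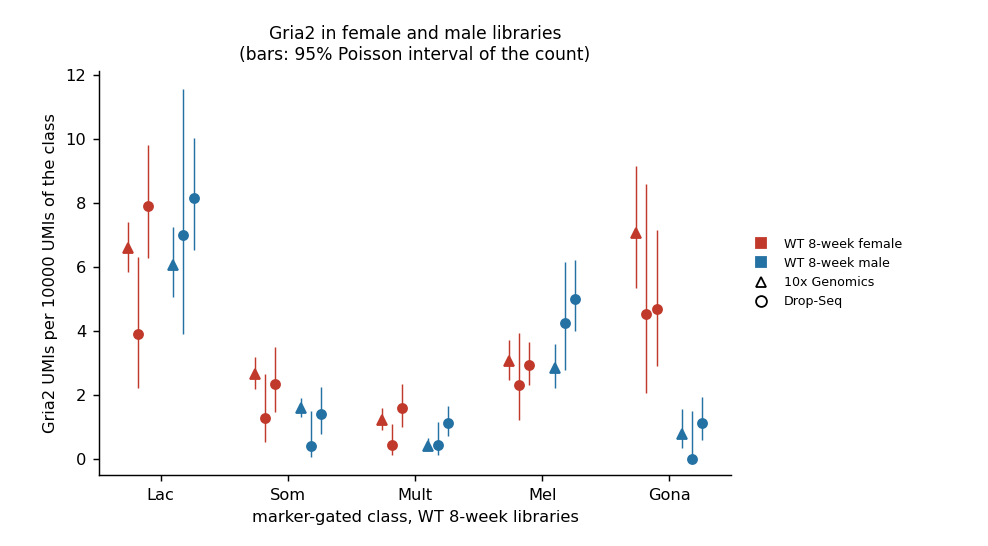
Gria2 level (vertical axis, UMIs per 10000 UMIs of the class) in the WT 8-week libraries by class (horizontal axis), females in red and males in blue. Each point is 1 library with the 95% Poisson interval of its count, triangles 10x Genomics and circles Drop-Seq. Females (4.52 to 7.07) and males (0 to 1.13) are apart in Gona-gated cells, while in Lac-gated cells the ranges overlap.

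Other genes of glutamate signalling were listed by role, 55 genes in all, of which 44 are in every table. Of the 13 that passed the filter on low counts in Lac-gated against Som-gated cells, 1 was higher and none lower, against 7.92% of all genes called. The median difference was -0.16 (log2) for the 13 and -0.03 for all genes. Grip1, a scaffold protein that binds AMPA receptors, was the one, higher in Lac-gated cells by 0.99 ± 0.33 (log2, SE; edgeR adjusted p = 0.0341). Adar, an RNA editing enzyme, was the only other gene above 0, with 0.13 ± 0.29 (adjusted p = 0.907). The smallest adjusted p values for a lower level in Lac-gated cells were those of Nsf (-0.46 ± 0.25, edgeR adjusted p = 0.327), which takes part in AMPA receptor trafficking, the NMDA receptor subunit Grin1 (-0.50 ± 0.29, adjusted p = 0.388) and the glutamate transporter Slc1a2 (-0.64 ± 0.38, adjusted p = 0.410).

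Against the other classes, 5 of 24 such genes were higher and 3 lower in Lac-gated cells (21.3% of all genes called), while 11 were higher and 1 lower in Mel-gated cells (24.5% of all genes called). The 11 in Mel-gated cells included Grin1 by 2.18 ± 0.21 and Grin3a by 2.75 ± 0.37, subunits of NMDA receptors, and Cacng2 by 2.39 ± 0.38 and Neto2 by 2.05 ± 0.30, auxiliary subunits of AMPA and kainate receptors respectively. Glul, the glutamine synthetase gene, was lower by -1.47 ± 0.30 in Mel-gated cells and by -1.63 ± 0.33 in Lac-gated cells (edgeR adjusted p of 2.67e-05 or less for these 6 values). These genes were named after their values had been seen. In Gona-gated cells 1 was higher and none lower (17.0% of all genes called), in Som-gated cells 7 were higher and 5 lower (25.1%), in Mult-gated cells 5 and 7 (50.1%), and in Stem-gated cells 7 and 8 (39.2%). In Mult-gated cells the 12 of 24 were thus called about as often as genes in general. For sex, lactation and mt/hGRF, 0 of them were called in any class by edgeR.

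The genes whose levels ran most like Gria2 over the 59 library and class sums, after the mean of each library was taken off, were Irak1 (Pearson r = 0.787), Ptprs (0.755), Guf1 (0.752), Maged1 (0.726) and Snap25 (0.719), out of 1443 genes with a mean of at least 1 UMI per 10000. These correlations are a description over sums that share libraries, depth and 6 classes. In all 5 genes the mean level was highest in Lac-gated cells, at 4.42, 2.43, 5.08, 8.61 and 6.01 UMIs per 10000. The genes were chosen for running like Gria2, itself highest there, so this is no separate result. For Maged1 the Gona-gated mean was close, at 8.51.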

How the data were processed

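Single-cell RNA-seq of mouse pituitaries was analysed in 10 libraries, 2 from 10x Genomics and 8 from Drop-Seq. The deposited tables hold raw UMI counts per gene symbol and barcode, without normalization. The authors had aligned Drop-Seq reads to mm10 with STAR 2.5.2a, counted exonic, uniquely mapped reads on the annotated strand of Gencode vM13 genes, and merged UMIs within 1 mismatch. For 10x Genomics they used Cell Ranger, whose version and gene models are not given in the sources used here.

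Cells were kept by the limits of the study (100 to 4000 genes and a minimum of 300 UMIs for Drop-Seq, from 200 up to 3000 genes for 10x Genomics, and a mitochondrial share below 0.1 for both). A cell entered a class when at least 2 UMIs of its marker genes were found, a count with a Poisson chance below 0.05 given its depth, and that chance was at least 3 times smaller than for any other class. No doublets were called, and an alternative left out the 5% of cells with the most UMIs. A stricter gate of 3 UMIs left 812 of 1255 Lac-gated cells. Sums of at least 20 cells were tested with edgeR 4.0.16 (R 4.3.3; TMM, quasi-likelihood, two-sided, genes with at least 2 UMIs in enough sums and 15 in all), with DESeq2 1.42.0 as an alternative, and the script was tested on simulated data. For sex, platform was a covariate. The study tested cells, and the library is the unit here. WT replicate numbers follow platform and date tags in the titles. In all 18 checks (6 sets of cells, 3 numbers) same-numbered female and male libraries deviated together from the means of their sexes (r = 0.367 to 0.906), so a replicate block was run as an alternative. Those means mix both platforms, which by itself moves same-numbered libraries together. The checks therefore cannot show a pairing beyond platform.

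Thinning used seed 7. Intervals and limits for a count of 0 (3 UMIs) cover counting error only. Log2 differences are fitted on sums, and means ± SD are over libraries. The genes, marker lists and pathway lists were chosen with earlier results of these data known. All 8 subunits are named by rule, the other glutamate genes in Lac-gated against Som-gated cells by the 3 smallest adjusted p in each direction (those named in Mel-gated cells were chosen after their values had been seen), and genes most like Gria2 by Pearson correlation of log2(UMIs per 10000 + 0.5). Promoter sequences and gene positions come from RefSeq and GENCODE vM21 on GRCm38.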

Additional observations from a re-analysis of the deposited data

Results flagged for a closer look

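A pair of results stood out because the effect of sex on Gria2 differed between classes by a test of that difference. The female minus male difference of Gria2 was larger in Gona-gated than in Lac-gated cells by 2.59 ± 0.49 (log2, SE; edgeR interaction, adjusted p = 2.49e-04) and larger than in Mel-gated cells by 2.94 ± 0.47 (adjusted p = 2.91e-06). Against Som-gated cells it was larger by 2.01 ± 0.52 and did not pass (adjusted p = 0.133). These 3 tests were chosen after the Gona-gated values had been seen, with 3 libraries of each sex. The Drop-Seq libraries alone gave a Gona-gated difference of 2.42 that did not pass (edgeR adjusted p = 0.401), and without WT female replicate 1 it was 2.43 and did not pass either (edgeR adjusted p = 0.113). No group had 4 or more libraries, so single libraries were not searched for values far from their group.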

How the results depend on the processing

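Depth limited the tests, since 4 of the 8 subunits had too few UMIs to be tested between Lac-gated and Som-gated cells, and the lactating and mt/hGRF comparisons rest on 1 library on one side. Of 708 refits of a log2 difference, 659 kept their direction and their side of the threshold, 38 lost the call, 3 gained it and 8 turned, and all 14 refits of the Gria2 share kept it. The turned values are all of Gria2 differences that did not pass. These were the sex difference in Lac-gated cells without WT female replicate 2 (0.13) or WT male replicate 3 (0.14), with a range of -0.29 to 0.14 when 1 library was left out. The mt/hGRF difference in Lac-gated cells turned with the stricter gate (-0.060), with library totals (-0.067) and without WT female replicate 2 (-0.21; range -0.21 to 0.73). In all cells the mt/hGRF difference turned without WT female replicate 3 (0.18; range -0.59 to 0.18). The lactation difference in Gona-gated cells turned without the 5% of cells with the most UMIs (-0.052) and without lactating replicate 1 (-0.17; range -0.17 to 0.73). The number of subunits called in Lac-gated against Som-gated cells went from 4 to 2 with cells thinned to 300 UMIs, which leaves fewer genes to test. Against the other classes it went for Som from 3 to 1 with the stricter gate or without the 5% of cells with the most UMIs (1 to 3 when 1 library was left out, with 1 without WT female or male replicate 3), for Stem from 6 to between 4 and 6 when 1 library was left out, for Mult from 2 to 4 with library totals, and for Gona from 0 to 4 with library totals and 1 by Drop-Seq alone (0 to 1 when 1 library was left out, with 1 without WT female replicate 1). For sex in Gona-gated cells it went from 1 to 0 by Drop-Seq alone (0 to 1 when 1 library was left out, with 0 without WT female replicate 1). With the replicate block Gria2 in Gona-gated cells was 2.69 (edgeR adjusted p = 1.63e-08), and the block changed no other call of a subunit, while the genes called for sex went from 11 to 18 in Lac-gated, 11 to 20 in Som-gated, 9 to 20 in Mel-gated and 12 to 36 in all cells. The 512 genes called in Lac-gated against Som-gated cells were 155 higher and 169 lower with DESeq2, 266 by Drop-Seq alone, 1211 with hormone gates and 140 with thinned cells, and the 2151 for Lac were 1104 by Drop-Seq alone. In the comparisons between conditions 0 to 42 genes were called, and 0 to 642 over the alternatives, with the widest range for mt/hGRF in all cells (1 gene, 197 with DESeq2 and 624 without the filter on low counts, and 642 without WT female replicate 2). Beyond the thinned cells the cause of these changes was not tested.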
